A study of Mus musculus with 15 samples.

Results

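Trefoil factors and gastrokines are small secreted proteins of the gastric mucus. The mouse genes followed here are Tff1, Tff2 and Tff3, and Gkn1, Gkn2 and Gkn3. They were chosen by gene symbol, and 6 of 6 were found among the 44788 symbols of the series, with 1 entry each. RNA-Seq had been carried out on whole stomachs of C57BL/6 mice at 15 timepoints, with 1 transcriptome per timepoint and no genetic change or treatment in any of them. The timepoints were daily from E12.5 to E18.5 (E for embryonic day), then days 1, 3 and 5 after birth (D1, D3 and D5) and weeks 1, 2, 3, 6 and 8 (W1 to W8). The study divided them into RNA phases, Ph1 from E12.5 to E17.5 (n = 6), Ph2 from E18.5 to W2 (n = 6) and Ph3 from W3 to W8 (n = 3). It reports that mice up to W2 were not separated by sex and that older ones were males. The step from Ph2 to Ph3 thus coincides with a change in sex make-up. Its replicates pooled 3 stomachs from E12.5 to E14.5 and 2 from E15.5 to E17.5, without a statement whether this held for RNA. Values are FPKM (fragments per kilobase of transcript, scaled to the size of the library), and errors at single timepoints are the confidence bounds deposited with each value, which do not include differences between animals.

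In the stomach, surface mucous cells line the pits and cover the surface, and mucous neck cells sit deeper in the glands. TFF1, carried by surface cells, and TFF2, carried by neck cells, are bound up with the mucins that these cells release, whereas TFF3 is best known from goblet cells of the intestine. Trefoil peptides are compact and resist digestion, and they aid the closure of wounds in the epithelium. GKN1 and GKN2 are made by surface mucous cells and have a BRICHOS domain. GKN2 forms a dimer with TFF1 in human stomach. GKN3 is a further gastrokine, known in mouse from the mucous neck cells.

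The 3 trefoil genes lie on the minus strand of chromosome 17, with the entry LOC102631757 between Tff2 and Tff1. In the positions of the files (GRCm38, counted from 1) these were chr17:31125306-31129611 for Tff3, chr17:31141062-31144282 for Tff2 and chr17:31161395-31165065 for Tff1, a block of 39760 bp. The gastrokine genes formed a block of 43283 bp on chromosome 6, with Gkn1 at chr6:87345653-87350915 (minus strand), Gkn2 at chr6:87373365-87379494 (plus strand) and Gkn3 at chr6:87383319-87388935 (minus strand). In the GENCODE annotation, Tff1 and Tff3 have 3 exons, Tff2 has 4, and each gastrokine gene has 6.

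The trefoil domain is the feature that the trefoil factors share and the reason for their name. It is held together by 6 cysteines, and a search of the GENCODE coding sequences for their spacing found 1 such stretch in Tff1 and in Tff3, 2 in Tff2, and 0 in each of Gkn1, Gkn2 and Gkn3. The stretches are printed from the first to the last cysteine codon, on the strand of the gene, with the cysteine codons in capitals, to show how alike the family members are. They lie in exon 2 of Tff1 (chr17:31162689-31162802), exons 2 (chr17:31143136-31143252) and 3 (chr17:31142224-31142337) of Tff2, and exon 2 of Tff3 (chr17:31127387-31127500).
Tff1: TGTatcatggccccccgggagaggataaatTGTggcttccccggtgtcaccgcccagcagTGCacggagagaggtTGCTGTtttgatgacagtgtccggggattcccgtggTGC
Tff2 stretch 1: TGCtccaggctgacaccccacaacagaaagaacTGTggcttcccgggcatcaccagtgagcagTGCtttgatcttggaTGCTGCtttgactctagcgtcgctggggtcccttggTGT
Tff2 stretch 2: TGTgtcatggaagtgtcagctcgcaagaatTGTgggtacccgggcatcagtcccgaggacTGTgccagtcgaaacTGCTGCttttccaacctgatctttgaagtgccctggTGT
Tff3: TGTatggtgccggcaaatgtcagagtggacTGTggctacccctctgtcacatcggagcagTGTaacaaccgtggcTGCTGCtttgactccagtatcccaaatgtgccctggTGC

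The stretches were compared over 87 bases, from the codon just before the second cysteine codon to the last cysteine codon. Tff1 and the first Tff2 stretch had 66.7% of these bases in common, Tff1 and Tff3 had 65.5%, and the 2 stretches of Tff2 had 58.6%. The longest run of identical bases shared by any 2 of the 6 transcripts was 14 bases, between Tff2 and Tff3. The longest between Gkn1 and Gkn2 was 10.

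The 250 bases upstream of the 3 gastrokine genes are printed (RefSeq, GRCm38.p6, 5′ to 3′ on the strand of the gene), because Gkn1 and Gkn2 moved together in the values that follow and Gkn3 did not keep to their course. Capitals mark matches, on either strand, to 3 motifs. These are the TATA box, searched as TATAAA, the core of binding sites for transcription factors of the GATA family, searched as GATAA, and a motif of forkhead transcription factors, searched as TGTTTNC. No match overlaps another. The windows are chr6:87350916-87351165 (Gkn1), chr6:87373115-87373364 (Gkn2) and chr6:87388936-87389185 (Gkn3).
Gkn1: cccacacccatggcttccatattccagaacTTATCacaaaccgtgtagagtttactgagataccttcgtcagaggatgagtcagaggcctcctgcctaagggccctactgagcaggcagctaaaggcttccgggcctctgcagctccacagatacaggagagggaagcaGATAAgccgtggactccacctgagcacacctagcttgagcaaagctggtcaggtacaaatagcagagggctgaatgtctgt
Gkn2: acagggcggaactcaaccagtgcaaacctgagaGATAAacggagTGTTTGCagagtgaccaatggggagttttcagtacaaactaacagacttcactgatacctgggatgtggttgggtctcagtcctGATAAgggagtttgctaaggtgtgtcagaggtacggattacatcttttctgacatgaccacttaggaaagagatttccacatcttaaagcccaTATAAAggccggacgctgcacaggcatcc
Gkn3: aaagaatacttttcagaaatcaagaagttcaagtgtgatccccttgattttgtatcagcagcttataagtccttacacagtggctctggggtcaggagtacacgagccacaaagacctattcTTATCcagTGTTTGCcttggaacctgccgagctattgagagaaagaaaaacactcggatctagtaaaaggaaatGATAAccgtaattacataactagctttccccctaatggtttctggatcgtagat

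Each of the 3 windows held 2 matches to GATAA, a motif found at least once in 22.6% of 32851 promoter windows of the same length. The share of windows with 2 matches was not counted. The windows of Gkn2 and Gkn3 each held 1 match to TGTTTNC, against 17.8% of all windows. Only the Gkn2 window of the 3 held TATAAA, 24 to 29 bases before the start, against 12.4% of all windows. These matches describe the sequence and were not tested for binding.

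Tff1 was the highest of the 6 genes at every timepoint. Its FPKM was 153 at E12.5, 175 at E13.5, 230 at E14.5, 365 at E15.5, 1230 at E16.5, 2382 at E17.5, 4586 at E18.5, 7388 at D1, 19774 at D3, 13670 at D5, 22787 at W1, 39313 at W2, 77497 at W3, 112832 at W6 and 65565 at W8. It thus rose from 587th place among all genes at E12.5 to 7th at D1, and from D3 on it stood between 2nd and 4th. The bounds of neighbouring timepoints overlapped only between E12.5 and E13.5, and the falls from D3 to D5 and from W6 to W8 were the only steps down. The bounds of Tff1 did not narrow below 3.97% of the value, unlike those of Gkn1, which narrowed to 0.239% at W6. GENCODE lists a Tff1 transcript of 703 nt and all other transcripts used here are between 493 and 1250 nt. FPKM divides by length, so the order of levels between genes depends on the length assigned, and the course of a gene over time does not.

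Tff2 followed Tff1 at a lower level. It had an FPKM of 12.3 at E12.5, 18.8 at E13.5, 27.2 at E14.5, 64.6 at E15.5, 238 at E16.5, 412 at E17.5, 833 at E18.5, 1035 at D1, 1286 at D3, 1515 at D5, 2544 at W1, 4259 at W2, 7598 at W3, 9388 at W6 and 6634 at W8. No neighbouring timepoints had overlapping bounds, and 13 of 14 steps were upwards, the exception being the step from W6 to W8. Tff2 did not share the fall of Tff1 between D3 and D5.

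Gkn1 and Gkn2 left their lowest values later than the trefoil genes. Gkn1 had an FPKM of 34.8 at E12.5, 35.2 at E13.5, 38.9 at E14.5, 38.7 at E15.5, 51.6 at E16.5, 85.0 at E17.5, 251 at E18.5, 525 at D1, 3611 at D3, 2758 at D5, 4972 at W1, 7693 at W2, 19147 at W3, 30780 at W6 and 19070 at W8. Gkn2 had an FPKM of 40.9 at E12.5, 42.1 at E13.5, 44.2 at E14.5, 48.1 at E15.5, 79.0 at E16.5, 119 at E17.5, 356 at E18.5, 826 at D1, 5455 at D3, 3545 at D5, 6170 at W1, 9986 at W2, 25356 at W3, 37678 at W6 and 27162 at W8. For both genes the bounds of neighbouring timepoints overlapped from E12.5 to E15.5 and at no later step. Both were among the 7 highest genes of the transcriptome from W3 on.

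Gkn3 started with Tff1 and Tff2 and ended far below the other gastrokines. Its FPKM was 2.42 at E12.5, 2.56 at E13.5, 2.49 at E14.5, 5.28 at E15.5, 22.3 at E16.5, 43.0 at E17.5, 93.2 at E18.5, 53.3 at D1, 222 at D3, 196 at D5, 125 at W1, 327 at W2, 810 at W3, 456 at W6 and 442 at W8. It was the only one of the 5 rising genes to be highest at W3, and it fell at 4 steps with bounds that did not overlap, at D1, D5, W1 and W6.

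**Figure D1:**
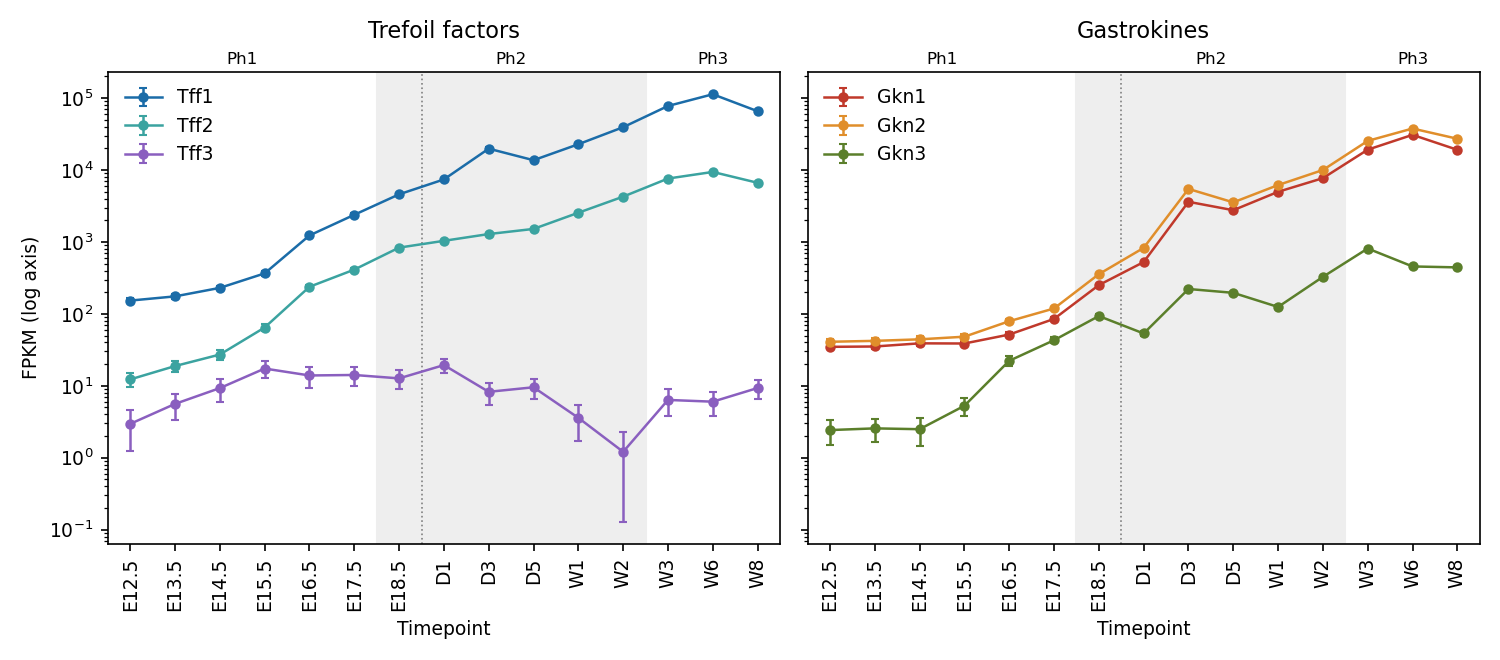
FPKM of the trefoil factors (left) and gastrokines (right) at 15 timepoints on a log axis, with bars for the deposited confidence bounds, grey for Ph2 and a dotted line between the last embryonic timepoint and D1. Tff1 climbs from 153 to 112832 FPKM, Gkn1 and Gkn2 lie flat until E15.5 and then run in parallel, and Tff3 stays under 20 FPKM.

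The steps differed in their timing. The largest step of Tff1 (3.37-fold), Tff2 (3.68-fold) and Gkn3 (4.22-fold) was the one from E15.5 to E16.5, whereas the largest step of Gkn1 (6.88-fold) and Gkn2 (6.60-fold) after E16.5 was the one from D1 to D3. Up to E15.5 the values of Gkn1 and Gkn2 were at a lower level common to high genes (described next), so no fold from E15.5 is given for them. Tff1 was near that level at E15.5, at 1.49% of its own mean over the 15 timepoints, which limits its fold from there. Between E17.5 and D3 the increases were 42.5-fold for Gkn1 and 45.9-fold for Gkn2, against 8.30-fold for Tff1, 5.15-fold for Gkn3 and 3.12-fold for Tff2. From D3 to W6 the increases were closer to each other, at 8.52-fold for Gkn1, 7.30-fold for Tff2, 6.91-fold for Gkn2, 5.71-fold for Tff1 and 2.06-fold for Gkn3. These folds have no replicate error.

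The lowest fetal values need care. At E12.5, Tff1, Tff2, Gkn1 and Gkn2 stood at 0.513% to 0.623% of their own mean over the 15 timepoints. Chia1 (acidic chitinase), Pgc (a pepsinogen), Clps (colipase) and Pla2g1b (a phospholipase), which were chosen after their values had been seen, stood at 0.528% to 0.551% there, and Chia1 kept to between 0.474% and 0.598% from E12.5 to D1. Of the 124 genes with a mean of at least 1000 FPKM, the lowest at E12.5 was at 0.492% of its mean, and over all 15 timepoints the lowest was Krt13, a keratin, at 0.393% at W8. Gkn1 and Gkn2 were between 0.525% and 0.655% from E12.5 to E15.5. A level in this range therefore cannot be read as expression in the fetal stomach, and a fold measured from it is limited by this common lower level, whose source was not tested. Tff2 first exceeded 1% of its mean at E14.5, Tff1 at E15.5, Gkn2 at E16.5 and Gkn1 at E17.5. The later rise of Gkn1 and Gkn2 thus rests on values from E16.5 on. Gkn3 and Tff3, with means of 187 and 9.31 FPKM, were above 1% throughout.

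**Figure D2:**
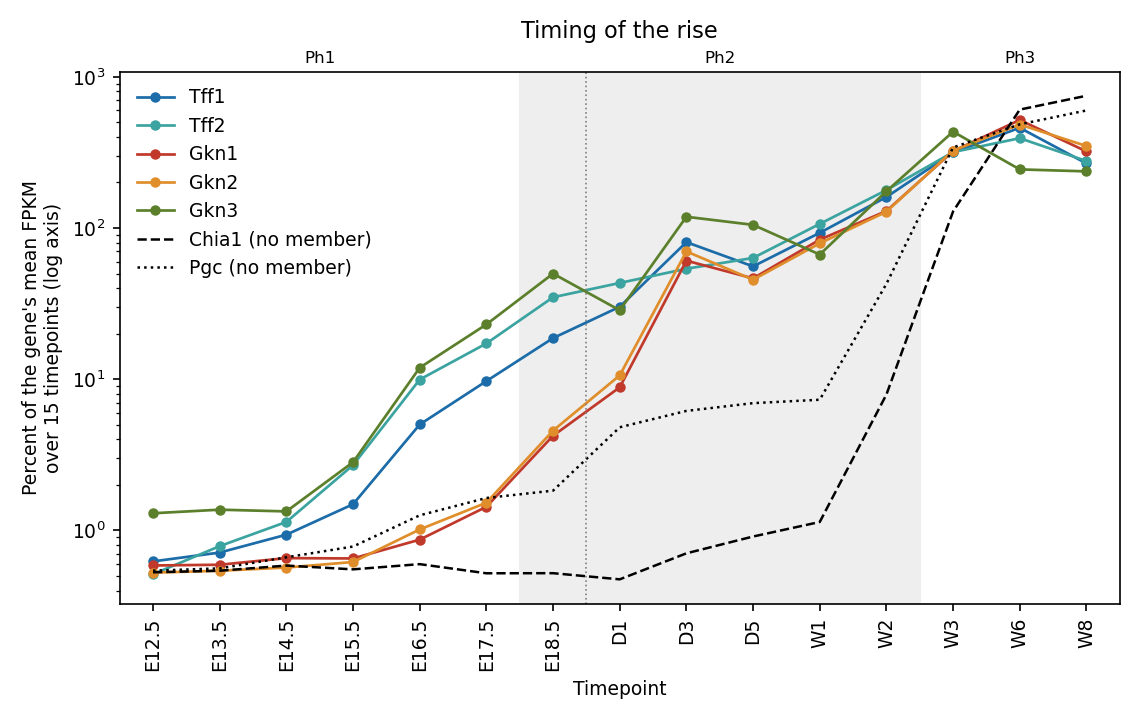
FPKM of 5 members at each timepoint as a percentage of the gene's own mean over 15 timepoints (log axis), with Chia1 and Pgc as black lines. The members Tff1, Tff2, Gkn1 and Gkn2 start beside both black lines at 0.513% to 0.623%, Tff2 and Tff1 leave that level first, Gkn1 and Gkn2 follow at E16.5 to E17.5, and Gkn3 starts higher.

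The comparison of phases asked at which transition the genes changed. With limma on log2(FPKM + 1), the F test across the 3 phases called 5 of the 6 members at an adjusted p under 0.01, that is all but Tff3, against 70.8% of all 16902 genes tested. Timepoints stand in for replicates here, so part of the spread in a phase is its own time course, and the phases had been drawn by the study from the same transcriptomes. In bulk tissue, fewer cells of a type and less RNA per cell cannot be told apart.

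From Ph1 to Ph2, 5 of 6 members rose, against 13.2% of all genes that were called higher. The differences in log2(FPKM + 1) were 5.51 ± 0.67 (SE) for Gkn2, 5.39 ± 0.69 for Gkn1, 5.03 ± 0.67 for Tff1, 4.75 ± 0.74 for Tff2 and 4.17 ± 0.64 for Gkn3, with limma adjusted p from 6.35e-05 (Gkn2) to 0.000162 (Tff2). Every Ph2 timepoint was above every Ph1 timepoint for these 5 genes. The exact two-sided permutation test of 6 against 6 timepoints gave 0.0022 for each of them, the smallest p that it allows. A gene that climbs steadily over ordered timepoints reaches this p wherever the border lies, so the test adds no separate support. In FPKM, Tff1 went from 756 ± 894 (SD, n = 6) in Ph1 to 17920 ± 12582 (n = 6) in Ph2, and Gkn2 from 62.2 ± 31.2 to 4390 ± 3614. Tff3 differed by -0.34 ± 0.49 (limma adjusted p = 0.563). The median of all genes was -0.22, and Gkn1 and Gkn2 would differ by 8.54 and 9.24 if 0.6% of each gene's mean were subtracted first. Relative to 8 epithelium genes, the 5 differences were 3.64 (Gkn3) to 4.98 (Gkn2).

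From Ph2 to Ph3, Gkn1 and Gkn2 rose further. Gkn1 differed by 3.54 ± 0.84 (limma adjusted p = 0.00278) and Gkn2 by 3.48 ± 0.82 (limma adjusted p = 0.00272), so that 2 of 6 members were called, against 3.41% of all genes. The median over all genes was -0.43. Tff1, at 2.55 ± 0.82 (limma adjusted p = 0.0164), Tff2, at 2.26 ± 0.91 (limma adjusted p = 0.0444), and Gkn3, at 1.92 ± 0.78 (limma adjusted p = 0.0465), did not pass 0.01, although each of the 3 Ph3 timepoints was above each of the 6 Ph2 timepoints for all 5 genes. The exact two-sided permutation test, which cannot go below 0.0119 here, gave 0.0119 for Tff2, 0.0238 for Tff1 and Gkn3 and 0.0357 for Gkn1 and Gkn2. The limit set by ordered timepoints holds for this step too. In FPKM, Gkn1 went from 3302 ± 2810 (SD, n = 6) to 22999 ± 6739 (n = 3), and Tff1 from 17920 ± 12582 to 85298 ± 24580.

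The calls at the second step depended on the timepoints included. Without W6, 0 members were called by limma, and Gkn1 and Gkn2 differed by 3.31 and 3.30 with adjusted p of 0.0193 and 0.0181. Subtraction of 0.6% of each gene's mean (chosen after the values had been seen) also left 0, with differences of 3.60 and 3.53, as did quantile normalization, whereas with E17.5 counted in Ph2 the number was 4, and without E17.5 or without W2 it was 3, Tff1 being added. The number of all genes called higher moved as well, from 577 in the main run to 301 without W6. It was 572 after the subtraction and 1728 with quantile normalization. With E17.5 in Ph2 it was 693, without E17.5 it was 633 and without W2 it was 737. That Gkn1 and Gkn2 rose by more than Tff1 at this step was not tested.

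Division at birth needs no transcriptome to define it. The 8 postnatal timepoints were above the 7 embryonic ones by 6.81 ± 0.73 (SE) in log2(FPKM + 1) for Gkn2, 6.73 ± 0.74 for Gkn1, 5.70 ± 0.79 for Tff1, 5.18 ± 0.87 for Tff2 and 4.46 ± 0.77 for Gkn3, and these 5 of 6 members were called by limma, against 11.3% of all genes. For Gkn3 the groups overlapped, since D1 lay below E18.5. For the other 4 they did not. Tff3 differed by -0.49 ± 0.42 (limma adjusted p = 0.311), and its groups overlapped.

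**Figure D3:**
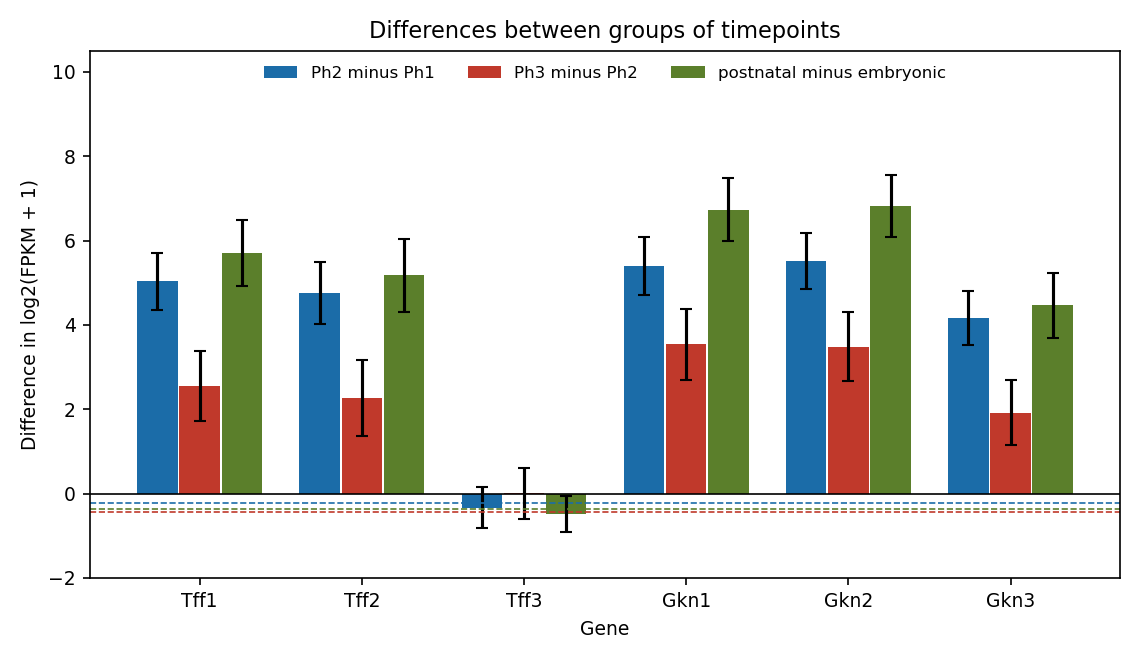
Differences in log2(FPKM + 1) between groups of timepoints for each member, from limma, with bars for 1 SE and dashed lines for the median of all 16902 genes in the colour of the comparison. The 5 other members lie far above the dashed lines from Ph1 to Ph2 and after birth, the steps from Ph2 to Ph3 are smaller at 1.92 to 3.54, and Tff3 lies near them.

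Ratios within a transcriptome do not depend on how that transcriptome was scaled. At the 10 timepoints from E17.5 to W8, Gkn2 was 1.22 (W6) to 1.57 (D1) times Gkn1, while Gkn1 increased 362-fold and Gkn2 317-fold between E17.5 and W6. These folds are limited by the common lower level, since Gkn1 and Gkn2 stood at 1.43% and 1.52% of their own mean at E17.5. Gkn2 was 1.14 to 1.24 times Gkn1 from E12.5 to E15.5 too. Both genes stood at the common lower level there, so that these values show nothing of a shared course. The log2 ratio, taken here and in all ratio tests after 1 FPKM was added to each value, was 0.34 ± 0.17 (SD, n = 6) in Ph1, 0.47 ± 0.14 (n = 6) in Ph2 and 0.40 ± 0.11 (n = 3) in Ph3. Exact two-sided permutation tests gave p = 0.175 (0.292 adjusted over the 10 ratio tests) for the first step and p = 0.536 (0.536 adjusted) for the second. After subtraction of 0.6% of each gene's mean, which set both genes to 0 at E12.5 and E13.5, the log2 ratio in Ph1 was -0.23 ± 1.09 (SD, n = 6).

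Tff2 was 0.0650 to 0.193 times Tff1. The ratio was 0.177 at E15.5, 0.193 at E16.5, 0.173 at E17.5 and 0.182 at E18.5, and it fell to 0.140 at D1 and 0.0650 at D3, where Tff1 increased 2.68-fold and Tff2 only 1.24-fold. It was 0.111 at D5 and between 0.0832 and 0.112 afterwards. From Ph1 to Ph2 the log2 ratio differed by -0.28, with exact two-sided permutation p = 0.323 (0.443 adjusted), and from Ph2 to Ph3 by -0.28, with p = 0.381 (0.443 adjusted). After subtraction of 0.6% of each gene's mean, the first of these was -0.69, with exact permutation p = 0.0108 (0.0271 adjusted). The subtraction set Tff2 to 0 at E12.5.

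Gkn3 moved against Gkn1. It was 0.432 times Gkn1 at E16.5, 0.506 at E17.5 and 0.372 at E18.5, then 0.102 at D1, 0.0614 at D3, 0.0251 at W1, 0.0423 at W3 and 0.0148 at W6. From E17.5 to W6 the ratio thus fell at most, though not all, steps. At E12.5 to E14.5 it was 0.0641 to 0.0728, when Gkn1 stood at the common lower level. The phases did not differ beyond the spread of their timepoints, with exact two-sided permutation p = 0.119 (0.238 adjusted) for Ph2 against Ph1. After subtraction of 0.6% of each gene's mean, this exact permutation p became 0.0022 (0.0108 adjusted), the smallest that the test allows. The subtraction set Gkn1 to 0 at E12.5 and E13.5. The log2 ratio was then 0.35 ± 0.82 (SD, n = 6) in Ph1 and -3.68 ± 1.40 (n = 6) in Ph2. The limit set by ordered timepoints holds for this test too.

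The summed trefoil factors were 2.15 times the summed gastrokines at E12.5, 4.85 times at E15.5, 9.70 times at E16.5 and 11.4 times at E17.5. The ratio was 7.76 at E18.5, 6.01 at D1 and 2.27 at D3, and between 1.55 and 2.42 from D5 to W8. Up to E16.5 the gastrokine sum was at or near the common lower level, so the order of the timepoints before E17.5 cannot be read from these ratios. After subtraction of 0.6% of each gene's mean, they were 33.2 at E15.5, 19.05 at E16.5 and 16.2 at E17.5.

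**Figure D4:**
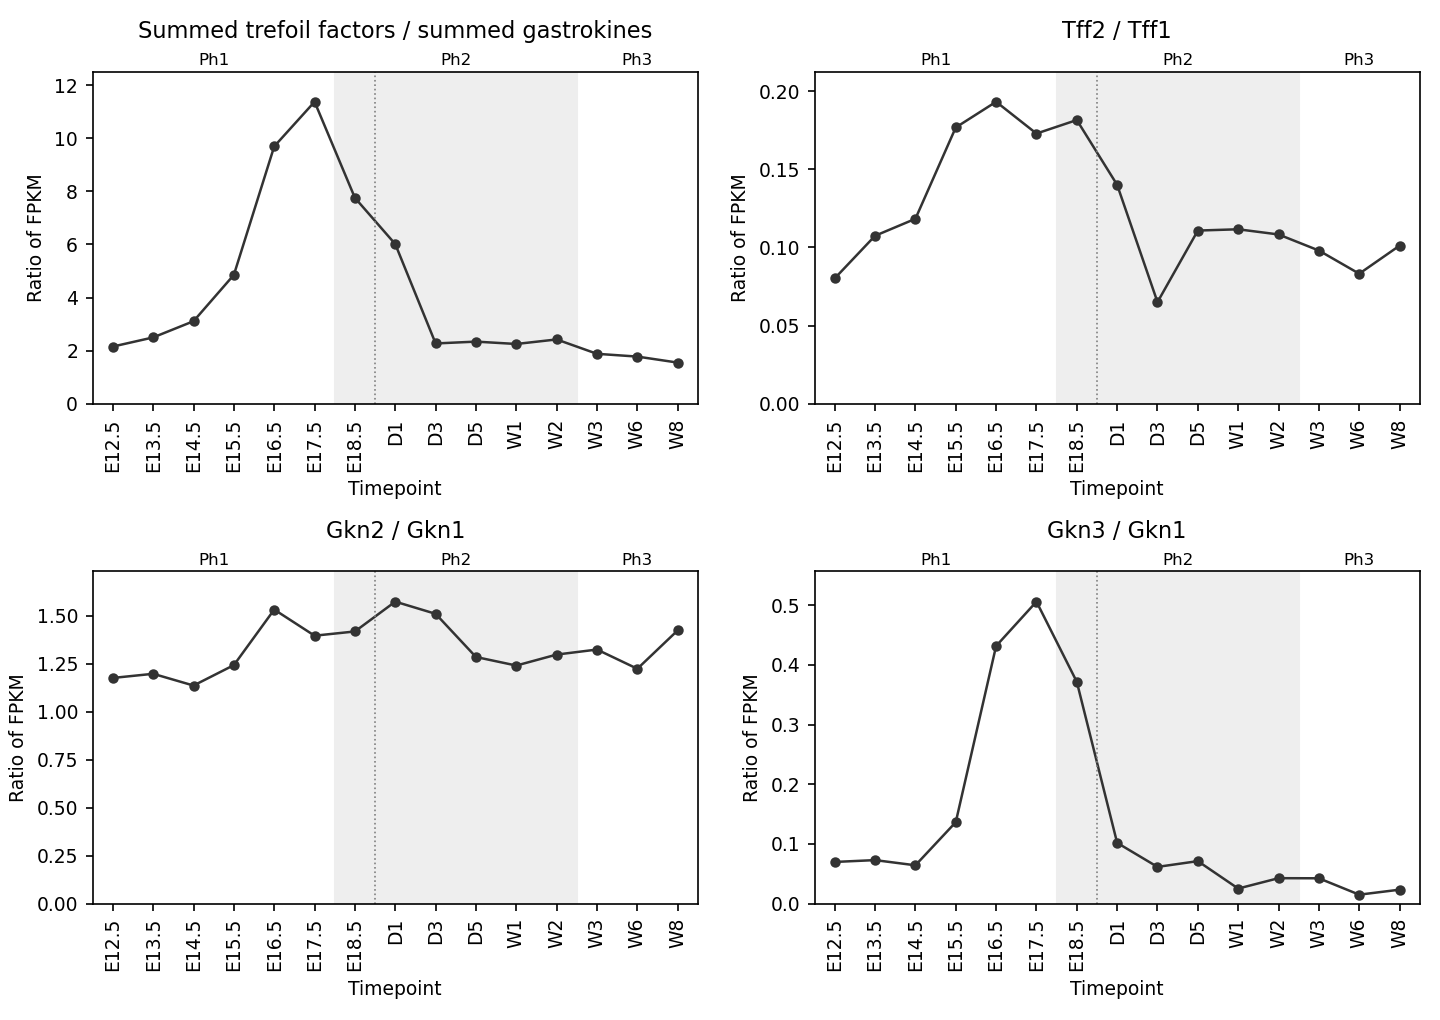
Ratios of FPKM between members at 15 timepoints, each from 0 on its own linear axis, with grey for Ph2. The printed ratio of trefoil factors to gastrokines is 11.4 at E17.5 (before then it is limited by gastrokines at or near the common lower level), Tff2 to Tff1 dips to 0.0650 at D3, Gkn2 to Gkn1 lies between 1.22 and 1.57 from E17.5 on, and Gkn3 to Gkn1 peaks at 0.506 at E17.5.

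Together the 6 genes made up 0.0320% of all FPKM at E12.5, 0.720% at E18.5, 3.48% at D3, 6.39% at W2, 14.2% at W6 and 10.6% at W8.

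Tff3 followed another course. It had an FPKM of 2.96 (bounds 1.24 to 4.67) at E12.5, 5.60 (3.40 to 7.81) at E13.5, 9.29 (6.04 to 12.54) at E14.5 and 17.4 (12.9 to 21.8) at E15.5. It stayed at 13.9 at E16.5, 14.1 at E17.5 and 12.7 at E18.5 and was highest at D1, at 19.4 (14.9 to 23.9). It was 8.25 at D3, 9.54 at D5, 3.59 at W1 and 1.21 (0.126 to 2.29) at W2, and 6.36, 6.01 and 9.31 at W3, W6 and W8. The bounds overlapped at 10 of the 14 steps. They did not for the rises from E14.5 to E15.5 and from W2 to W3 and the falls from D1 to D3 and from D5 to W1. Pearson's r between Tff3 and each of the other 5 members was between -0.12 and -0.34 over the 15 timepoints, whereas it was between 0.931 and 0.999 among those 5, all of which share the transcriptomes and the upward course.

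Tff1 exceeded Tff3 52 times at E12.5, 21 times at E15.5 and 18759 times at W6. At E12.5 Tff1 stood at the common lower level, so the value there cannot be read as a ratio of expression. After the subtraction used for the other ratios, Tff3 was 0.508 times Tff1 at E12.5, against 0.0193 times before it. At E15.5 it was 0.0794 times Tff1, against 0.0476 times before. The log2 ratios that follow are those before subtraction. The log2 ratio of Tff3 to Tff1 fell from -5.41 ± 1.18 (SD, n = 6) in Ph1 to -10.78 ± 2.22 (n = 6) in Ph2, with an exact two-sided permutation p = 0.0022 (0.0216 adjusted). That is the smallest p that the test allows, and the limit set by ordered timepoints holds here too. Tff3 itself was not called between these phases, so the test adds no separate support to the climb of Tff1. It was the only one of the 10 ratio tests to pass 0.05 before that subtraction, and 4 did after it.

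Muc2, the mucin of intestinal goblet cells, was at 0.709 FPKM or less throughout, and Retnlb did not exceed 0.0978 FPKM. Of the 4 goblet cell genes that could be tested of 6, Spink4 rose in Ph2 by 3.71. Spink4, Zg16 and Fcgbp were called higher in Ph3, and Tff3 was not. Of all genes, 13.2% were called higher in Ph2 and 3.41% in Ph3. At the single step from W2 to W3, however, Tff3 rose from 1.21 to 6.36 FPKM. At that step Fcgbp went from 0.418 to 35.8, Zg16 from 0.252 to 28.3 and Spink4 from 58.8 to 221. Clca1, the other tested gene, went from 0.410 to 0.330. The genes nearest to Tff3 in pattern were Kif21a (a kinesin, r = 0.78), Prom2 (a prominin, r = 0.78) and Ripk4 (a kinase of keratinocytes, r = 0.76), a weaker likeness than any other member had.

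**Figure D5:**
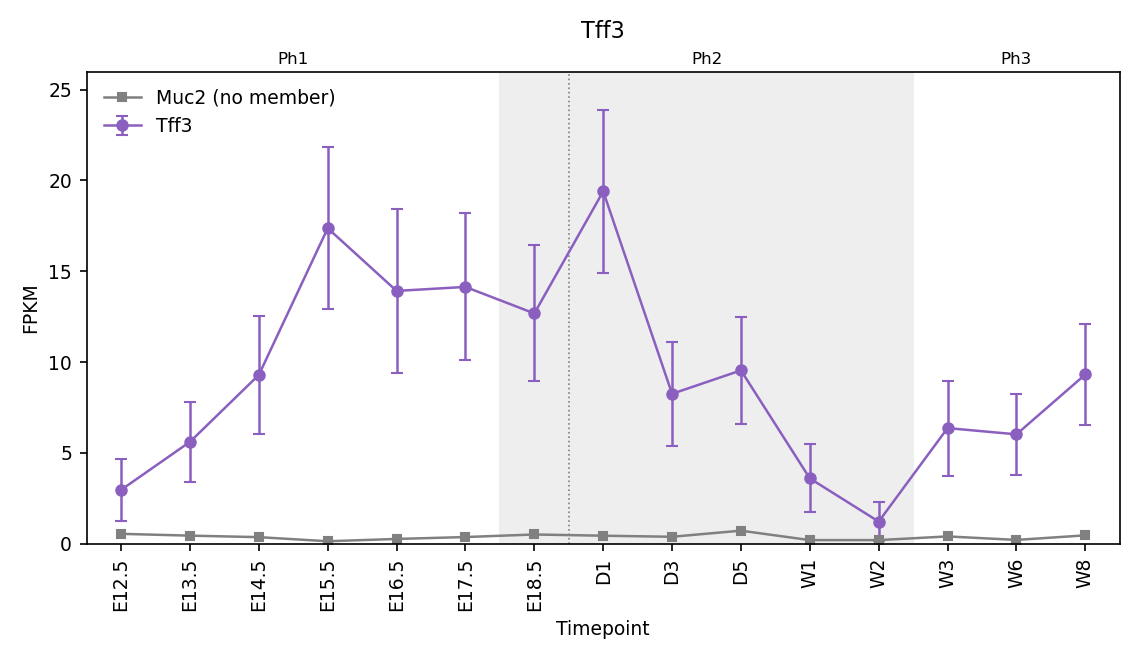
FPKM of Tff3 at 15 timepoints with its deposited confidence bounds, and of the goblet cell mucin Muc2, on a linear axis. Tff3 rises to 17.4 at E15.5 and 19.4 at D1 and falls to 1.21 at W2, and Muc2 does not exceed 0.709.

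Among the 9851 other genes that reached 10 FPKM, those most like Tff1 over the 15 timepoints (Pearson's r on log2(FPKM + 1), a description) were Gjb1 (a connexin, r = 0.996), Serinc2 (r = 0.99) and Cdk18 (a kinase, r = 0.99). For Tff2 they were Atp4b (the beta subunit of the gastric proton pump of parietal cells), H2-K1 (an MHC class I gene) and Ttc39a, with r of 0.995 to 0.997. H2-K1 belongs to a family of near-identical genes, so its reads are uncertain. For Gkn3 they were Sptssb (a subunit of serine palmitoyltransferase), Ly6a and Cyp2s1 (a cytochrome P450), with r of 0.986 to 0.988. Gkn1 and Gkn2 shared their first and second genes, Ces2d-ps (a carboxylesterase pseudogene) and Chpt1 (a choline phosphotransferase), followed by Tcf23 for Gkn1 and Ptprh for Gkn2. All of these genes share the rise over time, and with ranks in place of values only 2 of the 18 places held the same gene.

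Genes of the cells that carry the members rose with them. Of 12 genes of surface mucous cells, 10 rose from Ph1 to Ph2 and 0 fell, with a median of 2.83 in log2(FPKM + 1) against -0.22 for all genes, and 3 rose and 0 fell from Ph2 to Ph3. Of all genes, 13.2% were called higher and 35.1% lower at the first of these steps, and 3.41% and 37.4% at the second. The count for Ph2 was 10 or 11 under each scaling tried. Their summed FPKM was 48.8 to 1453 in Ph1, 1705 to 5947 in Ph2 and 10634 to 16060 in Ph3. Muc5ac, the secreted mucin with which TFF1 is found, did not follow this course. It was at 1.42 FPKM at E12.5, 6.38 at E17.5 and 3.85 at D3, then at 94.3 at W2, 494 at W3 and 671 at W8, and rose by 6.15 from Ph2 to Ph3 (limma adjusted p = 8.52e-05). Muc1, a membrane mucin, rose by 2.55, Psca by 4.51 and Dpcr1, a mucin-like gene, by 4.35 from Ph1 to Ph2. Thus Tff1 had reached 19774 FPKM at D3, when Muc5ac was at 3.85.

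Muc6, the mucin of the neck cells in which TFF2 is found, was at 0.311 FPKM at E12.5, 6.48 at E17.5, 16.46 at D3, 91.9 at W3, 76.6 at W6 and 259 at W8. A4gnt, which caps the sugars of this mucin, was at 2.72 at E17.5 and 66.2 at W8. Both rose from Ph1 to Ph2 (by 2.84 and 3.14), and Glipr1, the third gene of that list, differed by 0.57 (limma adjusted p = 0.0331). Muc6 was higher at W8 than at W6, when Tff2 and Gkn3 were not.

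Of 7 tested genes among 8 partners and proposed receptors of trefoil factors, 2 rose and 2 fell from Ph1 to Ph2, against 13.2% of all genes called higher and 35.1% called lower. With median-ratio scaling and with quantile normalization 3 rose and 1 fell, and relative to 8 epithelium genes 2 rose and 1 fell. Dmbt1, a binding partner of TFF2, rose by 3.97, from 0.304 FPKM at E12.5 and 14.6 at E17.5 to 115 at D3, and Muc6 rose as given above. Cxcr4, proposed as a receptor for TFF2, fell by 1.35, and Ackr3 fell by 0.58. Lingo2, proposed as a receptor for TFF3, did not exceed 1 FPKM and was not tested, and F2rl1 differed by 0.70 (limma adjusted p = 0.0133). From Ph2 to Ph3, Muc5ac, Muc6 and Fcgbp (the IgG Fc binding protein that pairs with trefoil factors) rose, and Cxcr4 and Ackr3 fell. Of all genes, 3.41% were called higher and 37.4% lower at this step. Relative to 8 epithelium genes, neither Cxcr4 nor Ackr3 was called in Ph3.

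Of 13 transcription factor genes linked to gastric mucous cells, 7 rose (Foxa3, Gata5, Gata6, Hnf4a, Klf4, Spdef and Foxq1) and 2 fell (Sox2 and Pdx1) from Ph1 to Ph2. Of all genes, 13.2% were called higher and 35.1% lower at this step. The median of the 13 was 0.92, against -0.22 for all genes. Foxq1, a forkhead gene needed for Muc5ac in surface cells, was at 11.98 FPKM at E12.5, 55.4 at E15.5, 105 at E17.5 and 189 at W2. Klf4 was at 13.9, 33.2, 78.1 and 119 at the same timepoints. With median-ratio scaling 8 rose and 0 fell, and relative to 8 epithelium genes 2 rose and 1 fell. From Ph2 to Ph3, Gata4 and Pdx1 rose and Sox2 fell, against 3.41% of all genes called higher and 37.4% called lower.

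Of 6 tested genes among 7 found with a BRICHOS domain outside the gastrokines, 1 (Itm2b) rose and 2 (Itm2a and Tnmd) fell from Ph1 to Ph2. Of all genes, 13.2% were called higher and 35.1% lower at this step, and the counts lie near these shares. With median-ratio scaling 2 rose and 1 fell. From Ph2 to Ph3, 0 rose and 2 fell, Itm2a by 3.39 and Itm2c by 0.71, against 3.41% of all genes called higher and 37.4% called lower. With median-ratio scaling or relative to 8 epithelium genes 1 fell. Itm2a, a membrane protein, was at 439 FPKM at E15.5 and at 6.07 at W8. The summed FPKM of the list, between 417 and 803, does not show this fall. Of 4 genes with a trefoil domain outside the trefoil factors, only the lysosomal enzyme Gaa reached 1 FPKM, and it was between 16.6 and 41.2. Gaa fell by 0.70 from Ph2 to Ph3 (limma adjusted p = 0.000373), a call that was lost with median-ratio scaling, with quantile normalization and relative to 8 epithelium genes.

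The neighbours of the genes differed from them in level. Within 200 kb of the trefoil block, 4 of 9 other genes reached 1 FPKM, against 16902 of all 44788 symbols. Slc37a1, a sugar phosphate transporter, was highest, at 17.55 FPKM at W6, and rose by 1.28 ± 0.26 (SE) from Ph1 to Ph2, as did Rsph1 by 0.68 ± 0.14 to at most 2.01 FPKM, while Abcg1 and LOC102631932 were not called at this step. Tmprss3, the next gene beyond Tff1, did not exceed 0.493 FPKM. Within 200 kb of the gastrokine block, 2 of 6 reached 1 FPKM, and the counts at both blocks lie near the share over all symbols. Arhgap25 fell from Ph2 to Ph3 by 0.69, and Prokr1 did not pass at either step, at -0.36 and -0.49. Over all genes, 13.2% were called higher from Ph1 to Ph2 and 37.4% lower from Ph2 to Ph3. Bmp10, the next gene beyond Gkn3, was at 0.0900 FPKM at most.

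Other tissues moved in single transcriptomes. At W8, the summed FPKM of 8 genes of the squamous forestomach was 27.2, against 2281 at W6 and 4740 at W3, and at D1 it was highest, at 18800. W8 was also where Tff1 was 0.581, Gkn1 0.620, Tff2 0.707 and Gkn2 0.721 times the value at W6. Without W8, Gkn1 and Gkn2 remained called from Ph2 to Ph3, at 3.66 and 3.54. At D1, where Gkn3 fell to 0.572 of E18.5, the liver genes Alb and Afp were highest, at 461 and 186 FPKM. The other genes of that list were not, with Ttr at 95.8 at E18.5 and 104 at D1, and Apoa1 at 399 at D1 and 2270 at W6. At D3 the pancreatic genes Ctrb1 (84.5 FPKM), Cela2a, Cela3b and Cpb1 were highest, and the other genes of that list were not. At D5, where Tff1, Gkn1 and Gkn2 were 0.691, 0.764 and 0.650 times their value at D3, 8 epithelium genes summed to 2084 FPKM against 2850 at D3, and 6 smooth muscle genes to 10483 against 8756. The part of these tissues in the members' values was not tested. Enterocyte genes summed to 66.2 FPKM or less, with Sis at 0.0195 FPKM at most.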

How the data were processed

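RNA of 15 whole stomach samples was sequenced by the authors, who deposited FPKM values with lower and upper confidence bounds for every gene entry. The labels name stomach, whereas the RNA methods of the study name liver tissue. The submitters' processing notes name Bowtie 0.12.2, FastQC and GRCm38.p2, and the study's methods name HISAT2 and StringTie. Read depth is not stated. The bounds do not include differences between animals, and which other errors they cover was not tested.

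Entries of a symbol were summed. Genes that reached 1 FPKM were tested on log2(FPKM + 1), which understates changes of low genes, with limma 3.58.1 in R 4.3.3 (Benjamini-Hochberg over 16902 genes, threshold 0.01), after a test on simulated data. Samples were grouped by the study's RNA phases and by birth. Exact two-sided permutation tests over timepoints (924 splits for 6 against 6, 84 for 6 against 3) were run in Python 3.11.15. They treat the timepoints as exchangeable, although these are ordered in time. Alternatives were other pseudocounts, FPKM limits, scalings, tests and phase borders, and leaving out each timepoint.

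The members and lists were chosen with earlier results of these data known. Named genes are the members, the 3 genes most like each, neighbours within 200 kb that reached 1 FPKM, and list genes (the first 4, or those set beside a result). Tmprss3, Bmp10 and the genes at the common lower level were named after their values had been seen. RefSeq promoters (GRCm38.p6) matched 3 of 6 members.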

Additional observations from a re-analysis of the deposited data

How the results depend on the processing

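The number of members called stayed at 5 for the F test, for Ph2 against Ph1 and for postnatal against embryonic under every alternative run, including each timepoint left out. For Ph3 against Ph2 it was 2, and it became 0 with quantile normalization and with 0.6% of each gene's mean subtracted, and 4 with E17.5 in Ph2. Leaving out 1 timepoint gave 0 (without W6) to 3 (without E17.5 or W2). Over all genes, the number called higher was 577 in the main run and 1728 with quantile normalization. It was 572 after the subtraction and 693 with E17.5 in Ph2. Without W6 it was 301, without E17.5 633 and without W2 737. Quantile normalization gave Gkn1 2.16 and Gkn2 1.82, with limma adjusted p of 0.0682 and 0.122, and the cause was not tested. Tff3, never called, changed sign. With 1 timepoint left out its difference was -0.61 to 0.038 for Ph2 against Ph1, above 0 without W2, and -0.37 to 0.27 for Ph3 against Ph2, below 0 without W1, W2 or W8. The latter was -0.12 with E17.5 in Ph2 and -0.026 relative to 8 epithelium genes. Of the ratio tests, 1 of 10 passed in each run except after subtraction of 0.6% of each gene's mean, which gave 4 (Tff2/Tff1, Tff3/Tff1, Gkn3/Gkn1 and the summed families, all for Ph2 against Ph1). Of the 18 genes most like the members, 12 were the same with median-ratio scaling and 2 with Spearman's rho. Median-ratio scaling moved the median of all genes from -0.22 to 0.01 (Ph2 against Ph1) and from -0.43 to -0.02 (Ph3 against Ph2), and the genes called in Ph2 from 2229 higher and 5935 lower to 3447 and 3109. No paired analysis was possible because no timepoint was replicated and the labels carry no replicate numbers. With 1 transcriptome per timepoint, differences between animals are not known at any timepoint, and for Tff3 the bounds were up to 89.4% of the value.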
